A study of Mus musculus with 6 samples.

Results

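The constitutive proteasome is the protease complex that cells make all the time, as opposed to the interferon-induced immunoproteasome. Its subunit genes were taken by name: every gene called Psma, Psmb, Psmc or Psmd followed by a digit, without the immunoproteasome subunits Psmb8, Psmb9 and Psmb10 and without pseudogenes. The rule gave 36 of the 28812 genes in the table, 15 for the core particle (Psma and Psmb) and 21 for the cap (Psmc and Psmd). Of these, 35 had enough counts to be tested. The exception was Psma8, an alpha subunit known from testis, which had 0.136 FPKM in mitochondria replicate 2, 0.130 FPKM in vehicle replicate 1 and was listed at 0 in the other 4 libraries. Psmc3ip entered through its name only, since it encodes a meiotic recombination factor that binds Psmc3. Psmd5, Psmd9 and Psmd10 encode chaperones that help to assemble the cap and are not part of the finished complex.

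The libraries hold polyadenylated RNA of cartilage cells (chondrocytes) of the mouse. All of them are labelled with a wild-type genotype and with OA (osteoarthritis) as the disease state, and all received IL-1β, an inflammatory cytokine. In 3 libraries the cells were also given mitochondria, which the series title traces to osteocytes, the cells embedded in bone, and in the other 3 they were given vehicle. No library without IL-1β was used here, so the effect of the cytokine itself is not covered, and the labels give neither age nor sex nor say whether replicates were separate animals or cultures. P-values therefore measure the spread between these libraries, which may be technical.

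The proteasome breaks down proteins that carry ubiquitin chains. Substrates are bound and unfolded by the cap, whose ATPases thread them through the gate formed by the alpha rings into the core, where the beta subunits Psmb5, Psmb6 and Psmb7 cut the chain. When proteasome activity is short, the transcription factor Nfe2l1 (NRF1) is known to raise many subunit genes together through antioxidant response elements in their promoters, and Nfe2l2 (NRF2) acts on the same kind of element. In cells given IL-1β the proteasome is well known for degrading the inhibitor that holds NF-kB in the cytoplasm.

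Promoters of 4 genes are shown, and their part in the results was not tested. Psmb5 and Psmb6 encode catalytic subunits with an antioxidant-response-element match. Psma7 and Psmd11 had the largest rises of the core and the cap in the edgeR test without GC offsets. The sequences are from RefSeq (GRCm38.p6), each running from 250 bases before the annotated start to 50 bases after it on the gene's own strand. Capitals mark TGACNNNGC (the core of the antioxidant response element) and CCAAT (the box bound by NF-Y), searched on both strands. No match of one motif overlapped a match of the other in these 4.
Psmb5 (chr14:54617946-54618245, minus strand): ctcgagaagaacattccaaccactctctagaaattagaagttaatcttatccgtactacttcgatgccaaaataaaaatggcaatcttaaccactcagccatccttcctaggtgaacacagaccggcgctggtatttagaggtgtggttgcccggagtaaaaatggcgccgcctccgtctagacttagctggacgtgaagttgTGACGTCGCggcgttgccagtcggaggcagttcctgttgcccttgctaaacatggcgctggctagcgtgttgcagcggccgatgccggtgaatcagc
Psmb6 (chr11:70525107-70525406, plus strand): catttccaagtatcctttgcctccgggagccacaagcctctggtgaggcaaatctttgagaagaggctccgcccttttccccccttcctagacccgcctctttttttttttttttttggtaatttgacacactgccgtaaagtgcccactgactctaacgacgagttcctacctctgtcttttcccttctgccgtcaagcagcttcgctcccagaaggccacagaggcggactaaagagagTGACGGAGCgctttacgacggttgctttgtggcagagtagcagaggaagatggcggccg
Psma7 (chr2:180042415-180042714, minus strand): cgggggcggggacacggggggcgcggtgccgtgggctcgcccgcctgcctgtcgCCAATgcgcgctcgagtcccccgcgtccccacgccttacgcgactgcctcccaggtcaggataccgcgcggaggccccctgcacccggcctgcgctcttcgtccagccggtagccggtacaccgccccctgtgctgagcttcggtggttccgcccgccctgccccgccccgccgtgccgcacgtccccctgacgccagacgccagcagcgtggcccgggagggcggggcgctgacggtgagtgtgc
Psmd11 (chr11:80428365-80428664, plus strand): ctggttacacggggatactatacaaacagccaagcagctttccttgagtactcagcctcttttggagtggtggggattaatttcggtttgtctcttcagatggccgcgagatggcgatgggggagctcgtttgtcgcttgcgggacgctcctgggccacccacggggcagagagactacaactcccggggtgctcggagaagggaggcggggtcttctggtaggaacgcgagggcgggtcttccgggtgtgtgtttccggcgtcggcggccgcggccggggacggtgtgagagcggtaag
The TGACNNNGC match began 47 bases before the start in Psmb5 and 9 bases before it in Psmb6, Psma7 held 1 CCAAT, and Psmd11 held neither motif in this window. Of the members, 29 were found in the promoter table. TGACNNNGC occurred in 5 of these genes (17.2%: Psmb5, Psmb6, Psmd9, Psmc6 and Psmd12) and in 5 of their 31 promoters. It occurred in 12.4% of all 32851 promoters of this length. CCAAT occurred in 12 genes (41.4%) and in 12 of the 31 promoters, against 37.4% of all promoters. The percentages of members are per gene and those of all promoters per promoter, so they are not on the same footing. Of the 7 genes that passed the test below and were matched, only Psmb5 held TGACNNNGC, and Psma2 and Psma7 held CCAAT. A match of letters is a description and not a site of binding.

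Totals were 63547854 to 66293786 deposited counts per mitochondria library and 64646124 to 65131847 per vehicle library. Low counts piled up at 4, so that a fragment appears to be worth about 4 counts, and precision is lower than the totals imply. Mitochondria replicate 1 stood apart by base composition: its 1857 genes under 42% GC lay at a median of -0.50 on the log2 scale from the mean of the 6 libraries, against -0.03 and -0.11 in the other mitochondria libraries and 0.20 to 0.24 in the vehicle libraries. Chondrocyte markers summed to 158 to 194 FPKM with mitochondria and 181 to 208 with vehicle (10 of 10 in the table, Matn3 under 0.5 everywhere, 2 called higher and 1 lower), and fibroblast markers to 1040.0 to 1235 and 1214 to 1394 FPKM, with 3 of 6 lower at adjusted p under 0.05. Macrophage and leukocyte markers summed to 38.1 to 48.1 and 39.4 to 51.7 FPKM (Ptprc under 0.5), and adipocyte markers to 14.6 to 15.6 and 15.5 to 16.8 FPKM (Lep at 0, 1 of 5 called lower), although the extraction text speaks of adipose RNA. Of the 5 osteocyte markers 4 were found, and they summed to 119 to 131 and 78.5 to 118 FPKM. Sost, Dmp1 and Phex were under 0.5 everywhere, so nearly all of that sum came from the remaining marker and does not measure osteocytes as a set. The part of these differences in the results was not tested, and in bulk RNA fewer cells of a type and less RNA per cell cannot be told apart.

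Transcripts of the members were modestly higher in chondrocytes given mitochondria: 8 of the 35 tested rose and none fell, 4 in the core and 4 in the cap. The cap count includes the 3 assembly chaperones, of which Psmd5 rose, and Psmc3ip, which are not subunits of the finished complex. The test was edgeR's quasi-likelihood test with Benjamini-Hochberg adjustment over 17290 genes and a threshold of 0.05, by which 6.36% of all genes were called higher and 8.46% lower. The estimate was above 0 for 30 of 35 members, against 50.3% of all genes. The median log2 fold change was 0.27 in the core and 0.15 in the cap, against 0.0031 over all genes. At an unadjusted p under 0.05 (edgeR), 19 members were higher and 0 lower, where 2583 and 2864 of all 17290 genes were. DESeq2 called 11 higher and 0 lower, against 10.1% and 14.7% of all genes.

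**Figure D1:**
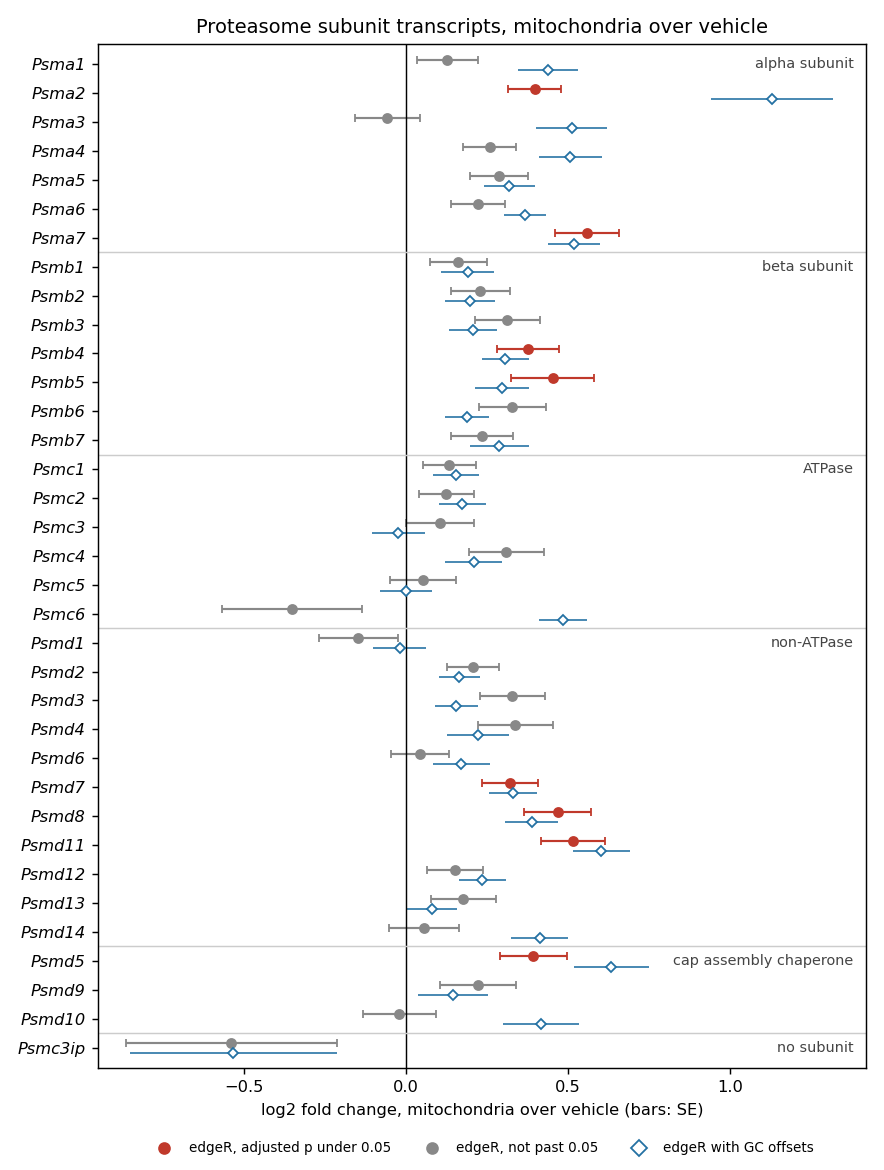
Log2 fold change (mitochondria over vehicle, 3 libraries each) of each tested member by subunit class, with bars for the SE. Filled points are the edgeR values, coloured where adjusted p was under 0.05 (8 members), and open diamonds are the values with GC offsets, which move Psmc6 from below 0 to above it.

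The alpha ring forms the gate through which substrates enter. Of its 7 tested members Psma7 and Psma2 rose, 5 had all mitochondria libraries above all vehicle libraries (19.8% of all genes did), and the median log2 fold change was 0.26. Psma7 (ENSMUSG00000027566, chr2:180036374-180042410) had 229.6, 187 and 198 CPM (counts per library of equal size after TMM scaling) in the mitochondria libraries, against 138, 144 and 135 CPM in the vehicle libraries. The groups were well apart, with the first mitochondria library the highest. The log2 fold change was 0.56 ± 0.10 (SE, adjusted p = 0.011, edgeR). Psma2 (ENSMUSG00000015671, chr13:14613240-14674236) had 159, 149 and 151 CPM with mitochondria and 114, 121 and 114 CPM with vehicle. Both groups were narrow, and the log2 fold change was 0.40 ± 0.08 (adjusted p = 0.018, edgeR). This transcript is AT-rich (39.4% GC) and its estimate was 1.13 ± 0.19 with GC offsets (adjusted p = 0.0047), a fit described with the GC values below. Genes under 42% GC were low in mitochondria replicate 1 (median -0.50), but Psma2 was highest in that library. The larger estimate therefore reflects the trend removed as well as the CPM of Psma2. Psma5, Psma4 (whose yeast counterpart holds the central tail of the gate) and Psma6 did not pass, with log2 fold changes of 0.29, 0.26 and 0.22 (adjusted p = 0.065, 0.070 and 0.11), nor did Psma1 (0.13, adjusted p = 0.40).
Psma3 had 83.2, 94.6 and 102 CPM with mitochondria and 95.5, 95.2 and 101 CPM with vehicle. Its groups overlapped (log2 -0.06, adjusted p = 0.74), and its sign turned with GC offsets (0.51, adjusted p = 0.012). Psma7 was not called without vehicle replicate 2 (adjusted p = 0.056) or 3 (0.070), and Psma2 not when replicate 2 (0.078) or 3 (0.10) of the vehicle group or replicate 3 of the mitochondria group (0.061) was left out. A part of the 75-base words of Psma5 (39.8%), Psma3 (21.3%) and Psma4 (16.7%) also occurs in other genes, among them the Psma3 copy Gm13835 at 70.1 FPKM with mitochondria and 75.2 with vehicle, so their values are less certain.

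The beta ring holds the proteolytic sites, and all 7 beta subunits had every mitochondria library above every vehicle library in CPM (19.8% of all genes did). In FPKM the groups of Psmb1 overlapped, with 33.18, 28.7 and 29.57 with mitochondria and 28.12, 29.23 and 28.51 with vehicle. Psmb5 and Psmb4 rose, and the median log2 fold change was 0.31. Psmb5 (ENSMUSG00000022193, chr14:54614119-54618022), the subunit with chymotrypsin-like activity and the target of bortezomib, had 176, 129 and 135 CPM in the mitochondria libraries and 111, 111 and 99.6 CPM in the vehicle libraries. The first mitochondria library was the highest by a wide margin. The log2 fold change was 0.45 ± 0.13 (adjusted p = 0.048, edgeR), just inside the threshold. Psmb6, with caspase-like activity, had 114, 94.2 and 93.0 CPM with mitochondria and 78.3, 82.0 and 79.7 CPM with vehicle. It did not pass, at 0.33 ± 0.10 (adjusted p = 0.068, edgeR). Psmb7, with trypsin-like activity, had 112, 99.1 and 98.9 CPM with mitochondria and 81.8, 91.2 and 90.4 CPM with vehicle. It did not pass either, at 0.23 ± 0.10 (adjusted p = 0.13, edgeR). Among the subunits without a catalytic site, Psmb4 (ENSMUSG00000005779, chr3:94884093-94886961) had 240.0, 197 and 212 CPM with mitochondria and 167, 172 and 162 CPM with vehicle, a log2 fold change of 0.38 ± 0.10 (adjusted p = 0.033, edgeR). The estimates of Psmb3, Psmb2 and Psmb1 were 0.31, 0.23 and 0.16 (adjusted p = 0.070, 0.12 and 0.25).
Leaving out any single vehicle library, or mitochondria replicate 3, ended the calls of both Psmb4 and Psmb5, with adjusted p-values of up to 0.15 for Psmb4 and 0.19 for Psmb5 over the leave-one-out fits. Of the 75-base words of Psmb5, 40.0% also occur elsewhere, mainly in its copy Gm3375 (3.98 FPKM with mitochondria and 2.94 with vehicle), as do 33.1% of those of Psmb3 and, on the opposite strand in Nek6, 24.1% of those of Psmb7.

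**Figure D2:**
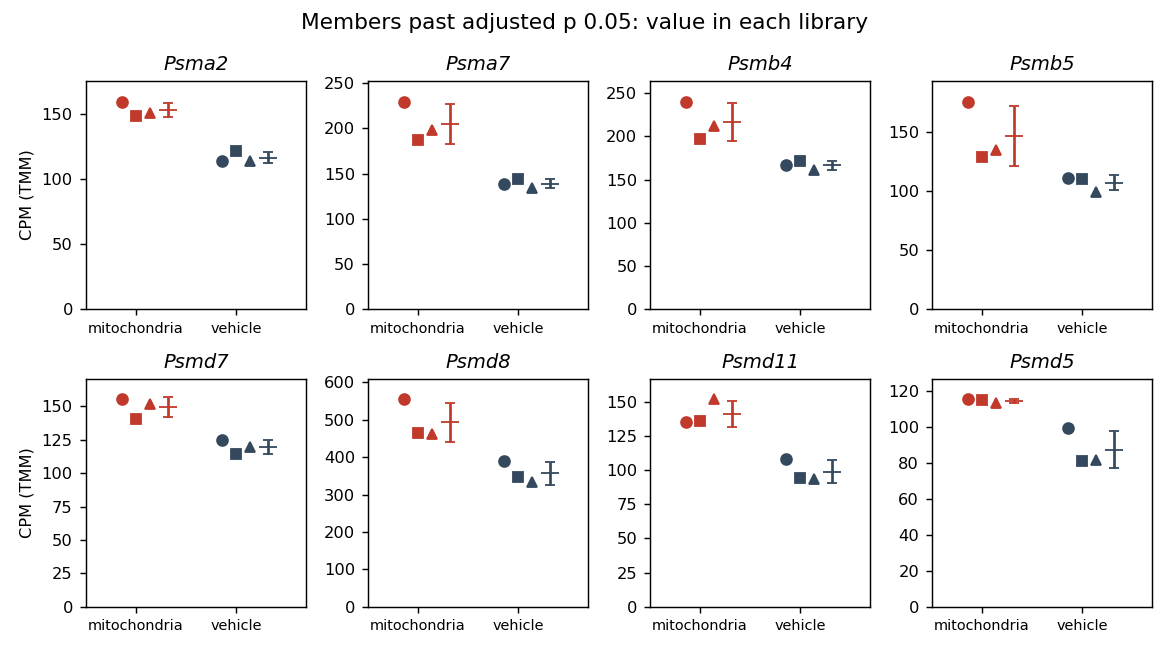
CPM (linear axis from 0) in each library for the 8 members past adjusted p 0.05, mitochondria left and vehicle right, with points for libraries and the offset mark and bar for mean and SD (n = 3). In all 8 genes the mitochondria libraries lie above the vehicle libraries, and mitochondria replicate 1 lies far above the other mitochondria libraries in Psma7, Psmb5 and Psmd8.

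The 6 ATPases form the ring of the cap that unfolds substrates. None passed the test (edgeR), DESeq2 called 0, and the median log2 fold change was 0.11. At an unadjusted p under 0.05 (edgeR) 1 ATPase was higher, where 2583 of all 17290 genes were. Psmc4 had 109, 84.3 and 94.2 CPM with mitochondria and 83.8, 72.2 and 75.7 CPM with vehicle, at 0.31 ± 0.12 (adjusted p = 0.11). Psmc1 and Psmc2 also had all mitochondria libraries above all vehicle libraries in CPM, at 0.13 ± 0.08 (adjusted p = 0.30) and 0.12 ± 0.09 (adjusted p = 0.36). In FPKM the groups of Psmc1, Psmc2 and Psmc4 overlapped. The groups overlapped for Psmc3 (0.10 ± 0.10, adjusted p = 0.55) and Psmc5 (0.05 ± 0.10, adjusted p = 0.77), and both signs turned in some of the rescaled fits.
Psmc6 was the single member with all mitochondria libraries below all vehicle libraries in CPM (20.9% of all genes were). It had 59.7, 116 and 110 CPM with mitochondria and 121, 125 and 118 CPM with vehicle. The gap came from mitochondria replicate 1, and the estimate of -0.35 ± 0.22 did not pass (adjusted p = 0.30, edgeR). Psmc6 has the lowest GC content of the 35 (37.0%), and with GC offsets its sign turned, to 0.48 (adjusted p = 0.0033).

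Of the 11 non-ATPase subunits, which bind ubiquitin, remove it and hold the cap together, Psmd11, Psmd8 and Psmd7 rose. All 3 belong to the lid, but so do Psmd3, Psmd6, Psmd12 and Psmd13, which did not pass. Of the 11, 7 had every mitochondria library above every vehicle library in CPM (19.8% of all genes did). In FPKM the groups of Psmd4 and Psmd12, which are among these, overlapped. Psmd11 (ENSMUSG00000017428, chr11:80428615-80473248), which ties the lid to the core, had 135, 136 and 152 CPM in the mitochondria libraries and 108, 94.2 and 93.3 CPM in the vehicle libraries. Its highest library was mitochondria replicate 3, and the log2 fold change was 0.51 ± 0.10 (adjusted p = 0.014, edgeR). Psmd8 (ENSMUSG00000030591, chr7:29174188-29180673) had 554, 465 and 461 CPM with mitochondria and 391, 347 and 333 CPM with vehicle. The groups were apart and the first library was the highest in each, at 0.47 ± 0.10 (adjusted p = 0.022, edgeR). Psmd7 (ENSMUSG00000039067, chr8:107580381-107588464), partner of the deubiquitinase Psmd14, had 155, 141 and 152 CPM with mitochondria and 125, 114 and 120 CPM with vehicle (0.32 ± 0.09, adjusted p = 0.039, edgeR).
The deubiquitinase itself, Psmd14, had 67.7, 83.4 and 79.6 CPM with mitochondria and 79.6, 71.9 and 70.6 CPM with vehicle, with overlapping groups (log2 0.05, adjusted p = 0.78). Estimates of Psmd4, a ubiquitin receptor, and of the lid subunit Psmd3 were 0.34 and 0.33 without passing (adjusted p = 0.082 and 0.060). Psmd2, the scaffold that docks ubiquitin-like domains, stood at 0.21 (adjusted p = 0.11), and the lid subunits Psmd13, Psmd12 and Psmd6 at 0.18, 0.15 and 0.04. The other scaffold, Psmd1, was the only non-ATPase with an estimate below 0 (-0.15, adjusted p = 0.46), with 112, 152 and 149 CPM with mitochondria and 157, 151 and 151 CPM with vehicle. In CPM only its first mitochondria library was low. In FPKM all its mitochondria libraries (13.65, 18.51 and 18.32) lay below its vehicle libraries (19.77, 19.47 and 19.41).
None of Psmd11, Psmd8 and Psmd7 was called when vehicle replicate 2, vehicle replicate 3 or the third mitochondria library was left out, nor Psmd7 without vehicle replicate 1, with adjusted p-values of up to 0.083, 0.11 and 0.18. Exons of opposite-strand genes overlap part of Psmd13 (Sirt3, 10.1% of its exonic bases), and 12.6% of the 75-base words of Psmd11 occur elsewhere, mainly on the opposite strand in A730017L22Rik (0.980 FPKM with mitochondria and 1.04 with vehicle), while the use of strand in counting is not given in the sources used here.

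Among the cap assembly chaperones Psmd5 rose and the other two did not pass. Psmd5 (ENSMUSG00000026869, chr2:34849734-34874968) had 116, 115 and 114 CPM in the mitochondria libraries and 99.4, 81.3 and 81.7 CPM in the vehicle libraries. The mitochondria libraries were nearly equal and vehicle replicate 1 was the highest of its group, at 0.39 ± 0.10 (adjusted p = 0.037, edgeR). The call was lost when replicate 2 or 3 of either group was left out (adjusted p of up to 0.17). Psmd9, of whose exonic bases 25.5% lie under the opposite-strand gene Gm26745, was at 0.22 (adjusted p = 0.23) and Psmd10 at -0.02 (adjusted p = 0.93). Psmc3ip, the recombination factor, had 1.44, 1.39 and 2.75 CPM with mitochondria and 2.73, 3.03 and 2.34 CPM with vehicle, with overlapping groups (-0.54 ± 0.32, adjusted p = 0.29).

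Core and cap medians lay above the mean in every mitochondria library and below it in every vehicle library. In the core the median deviation from the mean of 6 libraries, on the log2 scale, was 0.22, 0.07 and 0.12 in the mitochondria libraries and -0.19, -0.11 and -0.12 in the vehicle libraries. In the cap it was 0.16, 0.04 and 0.12 with mitochondria and -0.08, -0.07 and -0.09 with vehicle. Mitochondria replicate 1 was the highest of its group in 20 of the 35 members and the lowest in 9. Without that library 10 members were called higher (6 core, 4 cap; 6.02% of all genes) and 32 of 35 estimates were above 0. Without vehicle replicate 2 or without vehicle replicate 3 no member was called, where 0.727% and 0.736% of all genes were called higher, and without mitochondria replicate 3 only Psma7 was (2.21% of all genes). Over the 6 leave-one-out fits the median log2 fold change was 0.25 to 0.30 in the core and 0.12 to 0.19 in the cap.
Summed FPKM (fragments per kilobase, scaled to depth, which allows genes of different length to be compared) of the core members was 854, 763 and 791 in the mitochondria libraries and 662, 699.6 and 672 in the vehicle libraries. The cap members summed to 828, 756 and 807 FPKM with mitochondria and 733, 726 and 713 FPKM with vehicle. The ratio of the core sum to the cap sum was 1.03, 1.01 and 0.980 with mitochondria and 0.902, 0.964 and 0.943 with vehicle, so all 3 mitochondria libraries were above all 3 vehicle libraries. No test was made of this sum over members.

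**Figure D3:**
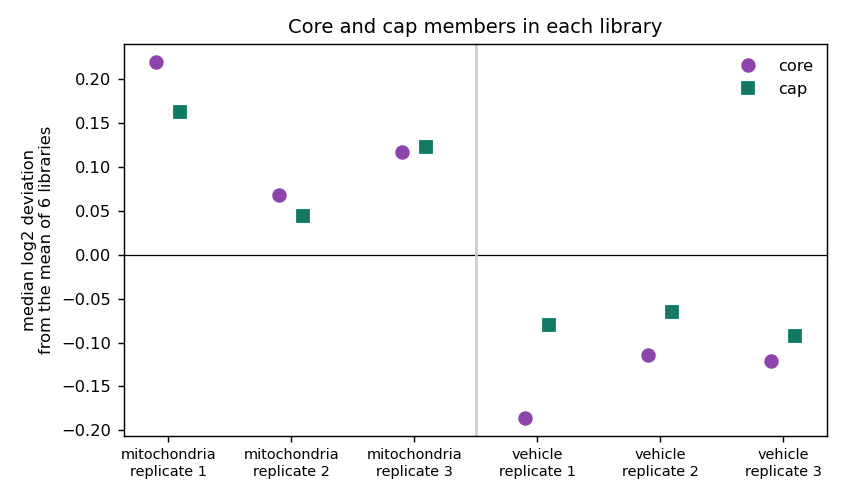
Median log2 deviation of the 14 tested core and 21 cap members from each gene's mean over the 6 libraries, one column per library. The mitochondria libraries lie between 0.04 and 0.22 and the vehicle libraries between -0.19 and -0.07.

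Fold changes moved with base composition in all genes, and the members were set against that trend. In the band under 42% GC the median log2 fold change was -0.06 over 3 members (Psma2, Psma3 and Psmc6) and -0.60 over all genes. In the band from 46% to 50% GC it was 0.16 over 12 members and -0.03 over all genes, and at 54% GC and over it was 0.33 over 5 members and 0.18 over all genes. In all, 31 of the 35 members lay above the median of their own band, the exceptions being Psmc3, Psmc5, Psmd1 and Psmc3ip. Across the members the fold change correlated with GC content at Pearson's r = 0.416 (Spearman's rho = 0.399, n = 35 genes that share the same 6 libraries), and across all 17270 genes with a GC value at 0.348.
When a smooth GC trend was removed from each library as an offset, 17 members were higher and 0 lower, against 11.0% and 8.77% of all genes. All 7 tested alpha subunits passed in that fit, with log2 fold changes of 0.32 to 1.13, as did 2 beta subunits, the ATPase Psmc6, 5 non-ATPases and 2 chaperones. The median was 0.31 in the core and 0.17 in the cap, against 0.03 over all genes. With transcript length removed as well, a fit added after seeing the data, 15 members were higher (13.2% of all genes) and Psmb5 was not called (0.22, adjusted p = 0.080).

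**Figure D4:**
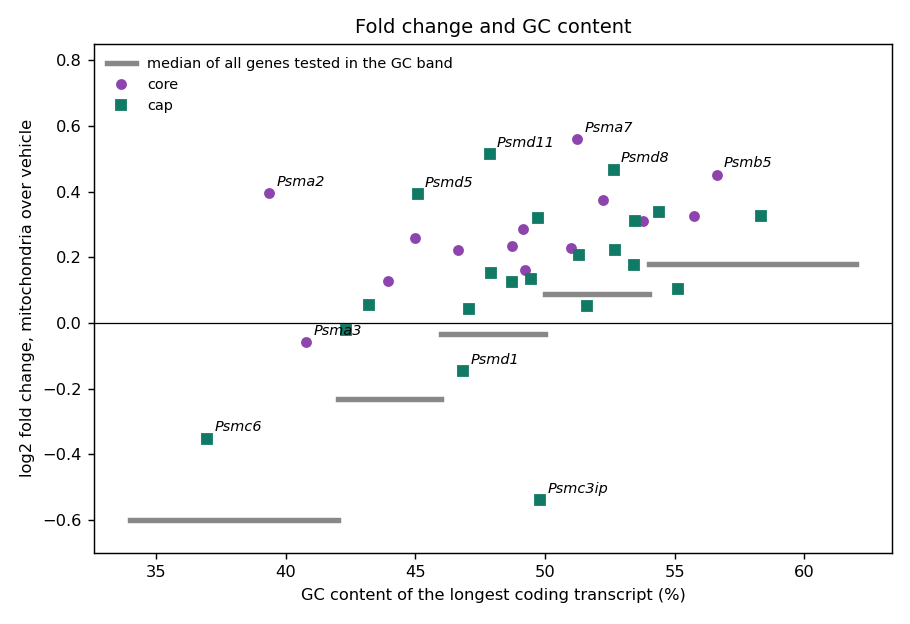
Log2 fold change of each tested member (circles core, squares cap) against the GC content of its longest coding transcript, with grey bars for the median of all genes tested in each GC band. Psma2 and Psmc6 lie above a band median of -0.60, and 31 of 35 members lie above their bar.

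Levels per length differed widely among the members, although the core subunits are present in equal number in the complex. The highest means over the 6 libraries were those of Psmb5 (128 FPKM), Psmd8 (126 FPKM) and Psma6 (114 FPKM), followed by Psmb4, Psmd2 and Psmc1. Psmb5 and Psmd8 had 145 ± 25.1 and 143 ± 15.1 FPKM with mitochondria and 111 ± 6.42 and 109 ± 8.01 FPKM with vehicle (mean ± SD, n = 3), so these neighbours did not differ beyond their spread. In the core without Psma8, the highest mean was 6.79 times the lowest with mitochondria and 4.77 times with vehicle (Psmb5 over Psma3). For the ATPases the span was 3.66 and 3.64 times (Psmc1 over Psmc2). The lowest members were Psmd5 (12.7 FPKM), Psmd9 (3.56 FPKM) and Psmc3ip (1.14 FPKM), none of them a subunit of the finished complex, and Psma8.

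**Figure D5:**
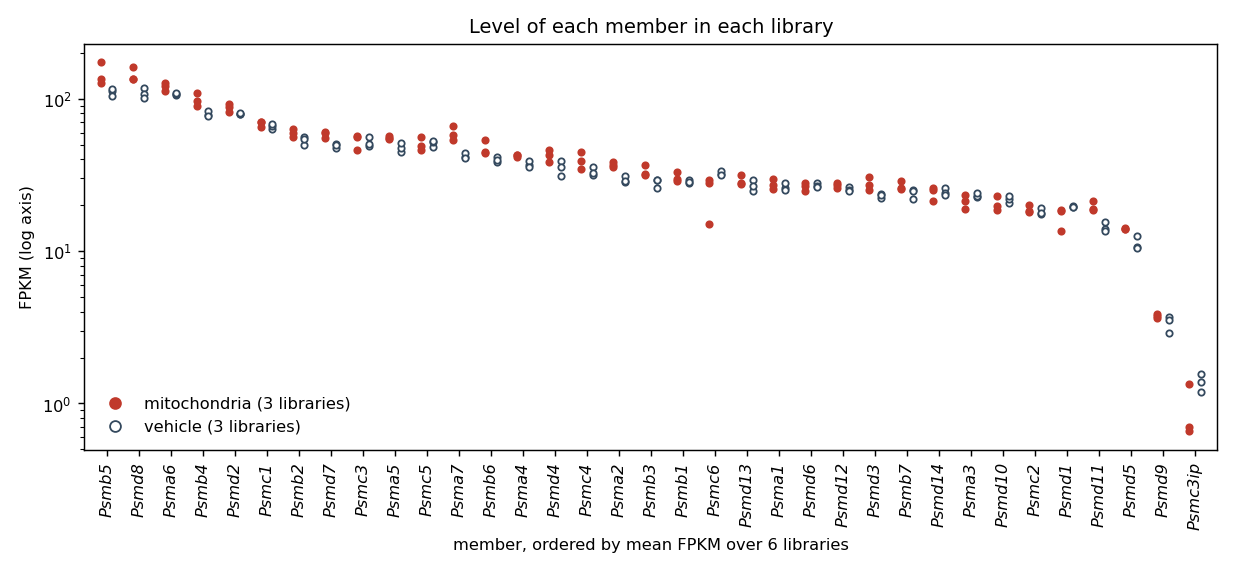
FPKM (log axis) of each tested member in each library, ordered by the mean over 6 libraries, filled points for mitochondria and open points for vehicle. Levels run from above 100 FPKM (Psmb5, Psmd8, Psma6) to about 1 FPKM (Psmc3ip). In most genes the mean of the mitochondria points is the higher, but in many the points of the groups overlap, as in Psmb1 and Psmc1.

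Of the interferon-induced subunits that can replace the catalytic ones, Psmb8 and Psmb9 were scarce. Psmb10 was less so, with means of 3.95 FPKM with mitochondria and 5.55 FPKM with vehicle. Psmb8 had 1.78, 0.914 and 1.36 FPKM with mitochondria and 0.883, 0.813 and 0.902 FPKM with vehicle (log2 0.70, adjusted p = 0.10, edgeR), Psmb9 stood at 0.95 (adjusted p = 0.19) and Psmb10 at -0.42 (adjusted p = 0.16). Relative to the subunit it replaces, Psmb8 had 1.03%, 0.724% and 1.02% of the FPKM of Psmb5 with mitochondria and 0.780%, 0.703% and 0.871% with vehicle. The log2 ratios differed by 0.22 (two-sided exact permutation test, p = 0.30, adjusted over 3 ratios 0.40). Psmb9 had 0.678%, 0.394% and 1.18% of the FPKM of Psmb6 with mitochondria and 0.572%, 0.489% and 0.360% with vehicle, a difference of 0.55 (exact p = 0.40, adjusted 0.40). Leaving out 1 library gave 0.13 (without mitochondria replicate 1) to 0.39 (without mitochondria replicate 2) for Psmb8, and 0.15 (without mitochondria replicate 3) to 0.94 (without mitochondria replicate 2) for Psmb9. Both differences turned sign when 1 FPKM was added to each value, to -0.0511 for Psmb8 and -0.0654 for Psmb9. Psmb10 had 14.8%, 14.3% and 15.2% of the FPKM of Psmb7 with mitochondria and 19.3%, 22.9% and 27.1% with vehicle. This was the one ratio whose groups did not overlap, lower with mitochondria by 0.63 on the log2 scale (-0.63), at the smallest p that 3 against 3 allows (exact p = 0.10, adjusted 0.30).

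Of 49 further genes of the pathway, in 7 lists, 5 rose and 2 fell, against 6.36% and 8.46% of all genes. In the list of transcription factors and their processing, the transcripts of Nfe2l1 and Nfe2l2 did not pass. Nfe2l1 had 447, 412 and 429 CPM with mitochondria and 445, 439.8 and 454 CPM with vehicle (log2 -0.06, adjusted p = 0.67). Nfe2l2 was at -0.10 (adjusted p = 0.59). Only RNA was measured, so the amount and activity of these proteins are not covered. Of the 13 genes of that list Maff, a small MAF partner of both factors, rose by 0.67 ± 0.15 (adjusted p = 0.022, edgeR), with 170.3, 136 and 132 CPM with mitochondria and 111, 81.1 and 84.7 CPM with vehicle. None of the 5 core assembly chaperones passed. Pomp, which matures the core, was at 0.36 ± 0.11 (adjusted p = 0.061, edgeR) and passed with GC offsets (0.39, adjusted p = 0.029).
Psmf1, an inhibitor of the core, rose by 0.49 ± 0.10 (adjusted p = 0.016, edgeR), with 54.2, 48.8 and 49.1 CPM with mitochondria and 34.6, 38.0 and 35.4 CPM with vehicle. From the same list of 3, the alternative activator Psme4 fell (-0.93 ± 0.25, adjusted p = 0.042), with 33.8, 75.1 and 71.1 CPM with mitochondria and 111, 115 and 118 CPM with vehicle. In the list of ubiquitin genes and activating enzymes, Ubb rose by 0.46 ± 0.09 (adjusted p = 0.014) and the activating enzyme Uba6 fell (-1.31 ± 0.25, adjusted p = 0.014). Uba6 and Psme4 encode long transcripts of 37.4% and 43.9% GC, and with GC offsets they stood at -0.51 (adjusted p = 0.012) and -0.66 (adjusted p = 0.024). With GC and length offsets Uba6 no longer passed (-0.30, adjusted p = 0.069), and Psme4 stood at -0.47 (adjusted p = 0.045). Among the 10 shuttle factors and segregase genes Faf2, which recruits the segregase Vcp to the endoplasmic reticulum, rose by 0.30 ± 0.09 (adjusted p = 0.047, edgeR). None of the 7 other cap subunits and cap-associated enzymes passed, nor any of the 5 induced subunits. With GC offsets 3 of those 7 were called higher, and Psmb10 was called lower (-0.56, adjusted p = 0.048). No pathway gene was called higher, and none lower, without vehicle replicate 2 or without vehicle replicate 3.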

How the data were processed

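The authors deposited 1 table with FPKM and estimated counts (expected counts, whole numbers) per gene and library. The submitters' processing notes name HISAT2 2.0, StringTie 1.3.0, Bowtie 0.12.2 and mm8, with no roles. Coordinates are GRCm38: 28732 of 28812 identifiers were found in GENCODE M21, and 25914 genes had the same start and end, 31 of the 36 members among them. Counts were tested in R 4.3.3 with edgeR 4.0.16 (TMM, filterByExpr with a minimum count of 10, quasi-likelihood test, group as the only term). The SE was obtained by dividing the size of the log2 fold change by the root of its F statistic. DESeq2 1.42.0 and limma 3.58.1 (on log2 FPKM plus 1) were alternatives. The fits were also run on simulated counts without a GC trend. That run checks the code, and not how GC offsets or small fold changes behave in these data. GC offsets are loess curves (span 0.4) per library on the GC content of the longest coding transcript. Members and pathway lists were chosen with earlier results of these data known. The text names every member past an adjusted p of 0.05, the catalytic subunits and the ATPases, the listed pathway genes past it, and 6 pathway genes whether they pass or not. Other members are named as neighbours of these. One listed pathway gene is counted but not reported here.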

Additional observations from a re-analysis of the deposited data

How the results depend on the processing

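No member was called lower in any of the 20 alternatives. The fits with GC and length offsets, with GC offsets and the replicate block, and with edgeR's newer quasi-likelihood form were chosen after seeing the data. Of the 700 values of the 35 members under the 20 alternatives, 582 kept direction and side of the threshold. Of the rest, 55 lost the call, 28 gained it and 35 turned sign, each value being counted once. Those that turned sign include Psma3, Psmc6 and Psmd10, which were also called higher in each fit with GC offsets. Core members called higher (4 of 14) were 8 with upper-quartile scaling, 2 without a filter on low counts, 2 in limma on log2(FPKM + 1), 2 with a pseudocount of 0.1, 2 with quantile normalization and 0 in limma without a filter. They were 9 with GC offsets, 8 with GC and length offsets, 9 with GC offsets and the replicate block, and 0 to 6 leaving out 1 library. Over all genes, 1099 of 17290 were called higher in the main fit and 1456 with upper-quartile scaling. Without a filter on low counts 357 of 26044 were. In limma 943, 906 and 1271 of 13188 were, in the order above, and 161 of 26043 without a filter. In the fits with GC offsets 1893, 2288 and 1606 of 17270 were. Leaving out 1 library gave 130 to 1086. Cap members called higher (4 of 21) were 1 without a filter on low counts, 2 in limma with a pseudocount of 0.1, 0 in limma without a filter, 8 with GC offsets, 7 with GC and length offsets, 7 with GC offsets and the block, and 0 to 4 leaving out 1 library. Pathway genes called higher (5 of 49) were 9 with upper-quartile scaling, 8 in DESeq2, 2 without a filter, 3 in limma with either pseudocount, 0 in limma without a filter, 11 with GC offsets, 15 with GC and length offsets, 10 with GC offsets and the block, and 0 to 6 leaving out 1 library. Those called lower (2) were 0 without a filter, 0 in limma without a filter, and 0 to 2 leaving out 1 library. Over all genes, 507 of 26044, 301 of 26043 and 310 to 1694 were called lower in these fits. DESeq2 called 1514 of 14922 genes higher.

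The replicate numbers are not said to pair libraries, and same-numbered libraries correlated at 0.0837, 0.0272 and 0.0237 once group means were removed, so the block was not used. With it, 2 core and 2 cap members and 898 of all 17290 genes were called higher, and not every library correlated best with its own number.

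Signs turned as follows. With GC offsets, with GC and length offsets, and with GC offsets and the block, the log2 fold change was 0.51, 0.51 and 0.50 for Psma3, 0.48, 0.47 and 0.48 for Psmc6, 0.42, 0.36 and 0.41 for Psmd10, -0.024, -0.059 and -0.026 for Psmc3, and 0.030, 0.017 and 0.033 for Nfe2l2. Psmc5 was at -0.061 with GC and length offsets and at -0.002 with GC offsets and the block. Upper-quartile scaling gave 0.0004 for Psma3, 0.037 for Psmd10 and 0.0055 for Nfe2l1. In limma with a pseudocount of 1, of 0.1 and without a filter, Psmc5 was at -0.021, -0.021 and -0.021, Psmd14 at -0.0169, -0.0177 and -0.0169, and Psmd6 at -0.026, -0.027 and -0.026. Quantile normalization gave -0.012 for Psmc1, -0.035 for Psmc3, -0.095 for Psmc5, -0.029 for Psmd14 and -0.050 for Psmd6. Leaving out 1 library gave -0.13 to 0.019 for Psma3, -0.033 to 0.11 for Psmc5, -0.11 to 0.043 for Psmd10 and -0.0074 to 0.14 for Psmd14. A pseudocount of 1 FPKM turned the difference in log2 ratio to -0.0511 for Psmb8 to Psmb5 and -0.0654 for Psmb9 to Psmb6. The cause of these changes was not tested. With 3 libraries a group, the differences of Psmc3 and Psmc5, no larger than their SE, could not be told from 0.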
